A study of Equus caballus with 24 samples.

Results

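The RNA of 10 proteins of the secretory granule was followed in the pituitary and long bone of a small and a larger horse breed: the granins CHGA, CHGB, SCG2, SCG3 and SCG5, the small granin-like protein PCSK1N, the prohormone-trimming enzyme CPE, and the granule transport and docking proteins SYTL4, RAB27A and RAB3B. They were found by an exact match of the gene name in the deposited read table and RPKM table. Of the 10 names, 9 were found among the 24232 genes of the read table, of which 16155 had a name, and PCSK1N had no match. The genes had been chosen by values of these same 24 libraries, so their levels and calls are given as a description with no p-value. The tests below give the share of all genes called. They were also run on lists of other secretory pathway genes, which were likewise chosen with earlier results of these data known.

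Endocrine cells store peptide hormones in dense-core granules and release them on demand. Granins are acidic proteins that aggregate with prohormones in the trans-Golgi network and help granules to form, and SCG5 also acts as the chaperone of the prohormone convertase PCSK2. CPE removes basic residues left on peptide ends by the convertases. RAB27A and RAB3B are small GTPases that mark the granule surface, and SYTL4, also called granuphilin, binds RAB27A and tethers the granule to the plasma membrane. In the anterior pituitary this machinery serves the release of growth hormone, prolactin and the other hormones of that lobe, and nerve terminals in the posterior lobe use dense-core granules as well.

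The study compared the Debao pony (DP), a small breed, with the Mongolian horse (MH). All animals were female, and the labels name no treatment or altered allele. Pituitary (P) and the epiphysis of a long bone (LB) were taken from juveniles (J), which were under 3 years old, and adults (A), which were older. The 8 groups were juvenile DP pituitary (DPPJ), adult DP pituitary (DPPA), juvenile MH pituitary (MHPJ), adult MH pituitary (MHPA), juvenile DP long bone (DPLBJ), adult DP long bone (DPLBA), juvenile MH long bone (MHLBJ) and adult MH long bone (MHLBA), each with 3 libraries of total RNA depleted of ribosomal RNA. The study obtained both tissues from 12 animals, but the labels do not tie a pituitary library to the long bone library of one animal. The comparison of the tissues therefore has no term for the animal and treats all 24 libraries as independent. P-values measure the spread among the 3 libraries of a group.

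The pituitary libraries held 11433209 to 23573036 reads assigned to genes (median 17211489) and the long bone libraries 11616518 to 27007342 (median 18939586). Only 7 of the 12 pituitary libraries carried anterior pituitary hormone genes at a high level. The summed RPKM, the reads of a gene scaled to its length and to the depth of the library, of 7 found markers of hormone cells, out of 10 listed, was 33701 to 42606 in the 3 DPPJ libraries, 36297 and 14609 in DPPA replicates 2 and 3, and 32180 and 31512 in MHPA replicates 2 and 3. It was 21.1 in DPPA replicate 1, 1.02 in MHPA replicate 1, and 0.29, 10.4 and 0.33 in MHPJ replicates 1 to 3, where TSHB was at 0 in every library. The 6 glial markers, all found, summed to 4639 to 6419 in MHPJ, 7157 in DPPA replicate 1 and 14374 in MHPA replicate 1, against 59.7 to 3399 in the other 7. Neuronal markers, 4 found of 5, summed to 124 to 662 in the 5 libraries without hormone genes and 90.1 to 249 in the 7 with them. The posterior lobe hormone genes AVP and OXT summed to 2141 RPKM in DPPA replicate 1 and 495 in DPPJ replicate 2, but to at most 0.81 in MHPA replicate 1 and the MHPJ libraries and at most 7.88 elsewhere in the pituitary, so the 5 libraries without hormone genes were not alike. The RNA of 1 library of each adult group and of all 3 MHPJ libraries thus lacked the defining markers of the anterior lobe, and results that rest on them are given with and without them where a group has other libraries. No MHPJ library carried the hormone genes at a high level, so for juveniles the breeds and the marker levels cannot be told apart. In whole tissue, fewer cells of a type and less RNA per cell cannot be told apart either.

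On average over the pituitary groups, all 9 genes were expressed more than in long bone. In MHPJ, however, RAB27A and SYTL4 were below every bone library. Of the 9 genes, 6 were low in the bone, with 1 library as the exception for the 5 granins. With all 24 libraries in one fit and each group weighted equally, the pituitary level was higher on the log2 scale by 8.60 ± 1.23 (SE) for CHGA, 8.42 ± 1.14 for SCG2, 8.25 ± 1.19 for CHGB, 8.03 ± 0.87 for SCG5, 6.51 ± 0.61 for SCG3 and 6.32 ± 0.63 for RAB3B. The difference was smaller for SYTL4 (2.09 ± 0.35), RAB27A (1.92 ± 0.48) and CPE (1.22 ± 0.46). Thus 9 of 9 met the study's threshold for a differentially expressed gene (DEG), an unadjusted edgeR p under 0.05 with a fold change over 2, where 21.5% of the 16131 genes tested were called higher and 17.4% lower. With Benjamini-Hochberg adjusted p under 0.05 in place of the unadjusted p and the fold change, 61.8% of all genes were called in one direction or the other. The 12 pituitary and 12 long bone libraries did not overlap in RPKM for SCG2, SCG3 and RAB3B, and overlapped for the other 6 genes. Of the 14017 genes with a mean of at least 1 RPKM, 6.01% lay wholly higher in pituitary and 1.69% wholly lower. The RPKM gaps were narrow for SCG2 (lowest pituitary 18.9, highest bone 16.6) and SCG3 (21.7 and 16.5). On the scaled counts used in the fit, both of these overlapped and only RAB3B did not. With DPPA replicate 1, MHPA replicate 1 and MHLBA replicate 1 left out, 8 of 9 met the threshold and CPE stood at 0.77 ± 0.48.

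**Figure D1:**
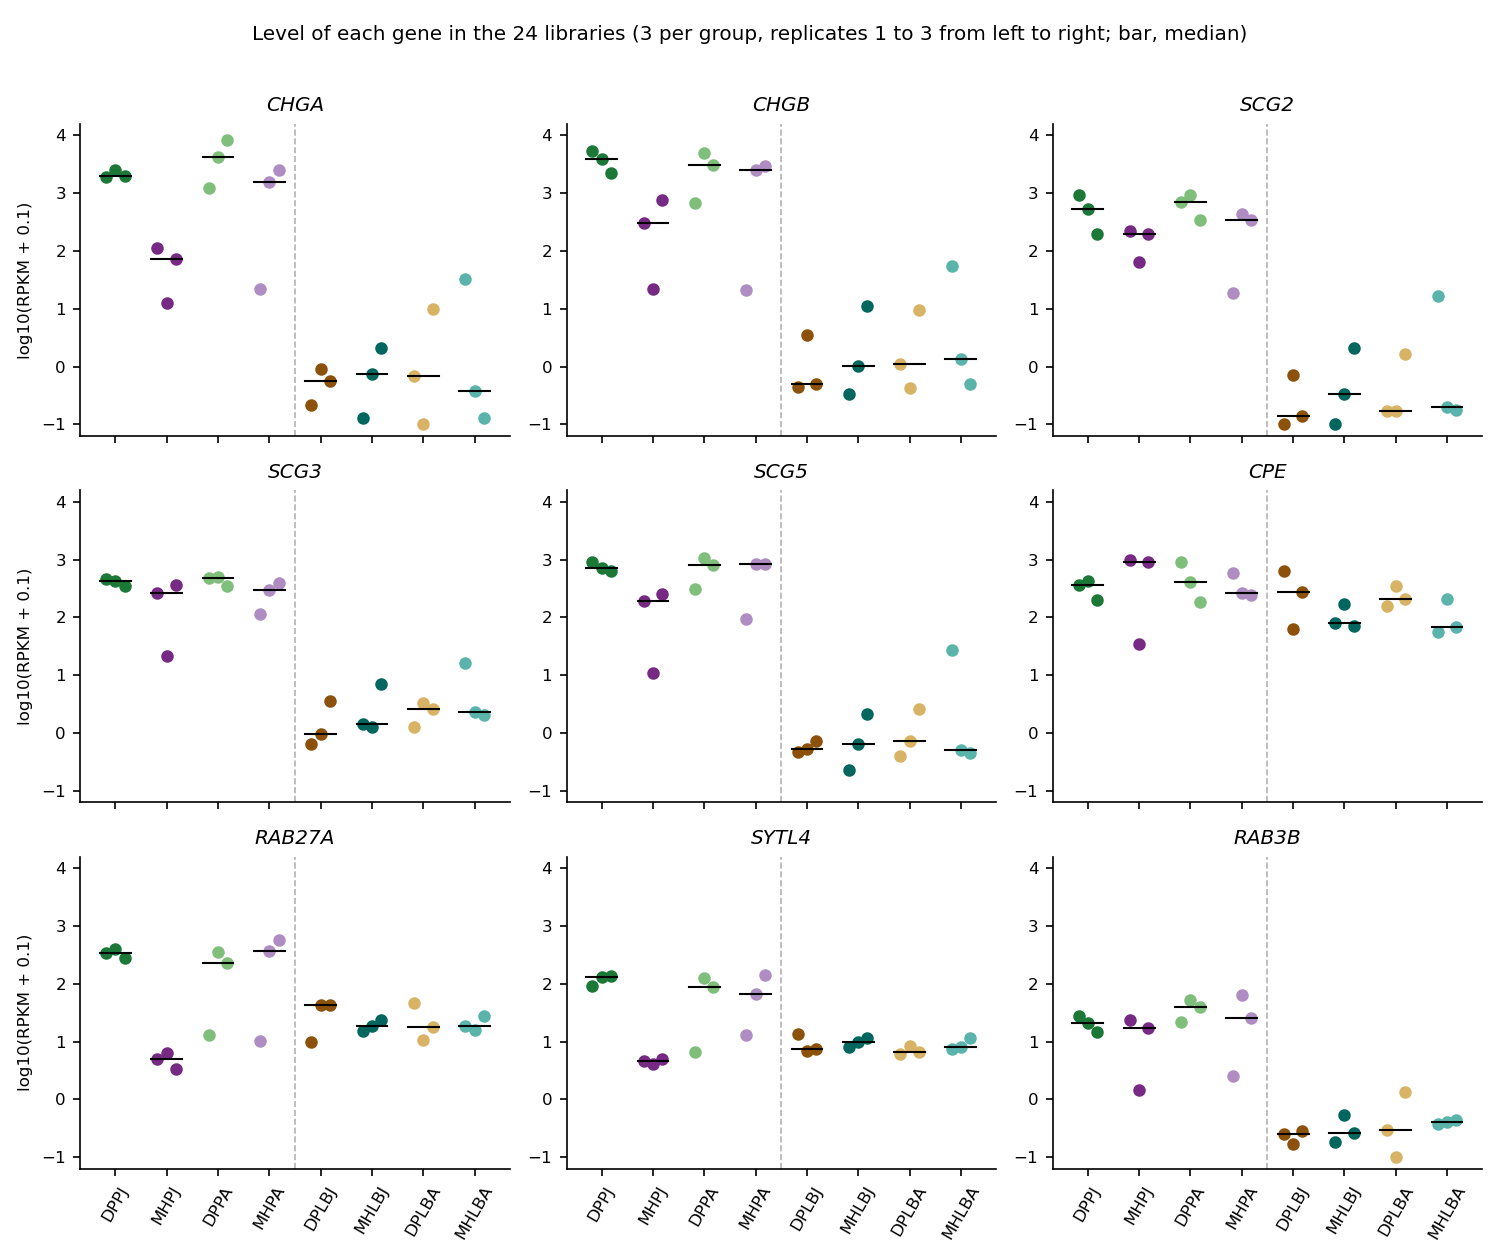
Level of the 9 genes as log10(RPKM + 0.1) in each of the 24 libraries (points, 3 per group), with the median of each group as a bar. Granins and RAB3B lay far higher in most pituitary libraries than in long bone, CPE was present in both tissues, and RAB27A and SYTL4 were lowest in MHPJ.

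CHGA (chromogranin A, ENSECAG00000019194, gene length 1825 bases) was the granin with the widest range. Its RPKM was 1892, 2561 and 1978 in DPPJ, 1226, 4157 and 8336 in DPPA, 22.2, 1578 and 2508 in MHPA, and 112, 12.7 and 73.4 in MHPJ. The level of 8336 in DPPA replicate 3 was rank 3 of all 24248 genes of the RPKM table in that library. All DPPJ libraries lay above all MHPJ libraries, whereas DPPA and MHPA overlapped, with MHPA replicates 2 and 3 above DPPA replicate 1. In long bone CHGA stayed at 0 to 9.82 RPKM except in MHLBA replicate 1, where it reached 32.9, above the lowest pituitary value.

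CHGB (secretogranin I, ENSECAG00000015702, 2062 bases) behaved much like CHGA. It stood at 5282, 3937 and 2242 RPKM in DPPJ, 681, 5011 and 3021 in DPPA, 21.4, 2545 and 2931 in MHPA, and 303, 21.6 and 765 in MHPJ. Again DPPJ and MHPJ did not overlap and the adult groups did. Across the 12 pituitary libraries, CHGA and CHGB had a Pearson r of 0.917 on log2 CPM (reads scaled to library depth), a description only, since these libraries fall into separate clusters.

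SCG2 (secretogranin II, ENSECAG00000012892, 2464 bases), whose product is also cut into secretoneurin, differed less between libraries. Its RPKM was 928, 531 and 200.0 in DPPJ, 711, 941 and 339 in DPPA, 18.9, 438 and 342 in MHPA, and 218, 65.5 and 196 in MHPJ. DPPJ and MHPJ overlapped, since DPPJ replicate 3 was below MHPJ replicate 1.

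SCG3 (secretogranin III, ENSECAG00000016522, 2019 bases), which binds CHGA at cholesterol-rich granule membranes, had the most even level of the granins. It was 456, 432 and 349 RPKM in DPPJ, 486, 504 and 346 in DPPA, 114, 293 and 391 in MHPA, and 267, 21.7 and 360.2 in MHPJ. Among the 5 pituitary libraries without hormone genes, DPPA replicate 1 (486) and MHPJ replicate 3 were within or above the DPPJ range, and only MHPJ replicate 2 fell under 100 RPKM.

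SCG5 (the chaperone 7B2, ENSECAG00000022874, 904 bases) stood at 901, 705 and 641 RPKM in DPPJ, 309, 1073 and 791 in DPPA, 92.7, 835 and 851 in MHPA, and 190, 10.6 and 252 in MHPJ. DPPJ lay above MHPJ with no overlap. Each of the 5 libraries without hormone genes was below each of the 7 with them.

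CPE (carboxypeptidase E, ENSECAG00000009256, 1449 bases) had another order. It was 361, 426 and 202 RPKM in DPPJ, 894, 417 and 184 in DPPA, 595, 265 and 245 in MHPA, and 967, 34.4 and 897 in MHPJ. The 4 highest pituitary values all came from libraries without hormone genes, but the fifth of those libraries, MHPJ replicate 2, held the lowest. CPE was also the member best expressed in long bone, at 643, 62.3 and 274 RPKM in DPLBJ, 78.6, 173 and 72.2 in MHLBJ, 160 to 350.5 in DPLBA and 56.8 to 206 in MHLBA.

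RAB27A (ENSECAG00000010394, 767 bases) split the pituitary libraries most cleanly. Its RPKM was 338, 398 and 275 in DPPJ, 348 and 232 in DPPA replicates 2 and 3, and 374 and 565 in MHPA replicates 2 and 3. It was 12.7 in DPPA replicate 1, 10.0 in MHPA replicate 1, and 4.82, 6.35 and 3.30 in MHPJ, which rested on 86, 79 and 56 reads. No value lay between 12.7 and 232. In long bone RAB27A ranged from 9.65 to 45.6 RPKM, so that all 3 MHPJ libraries were below all 12 bone libraries.

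SYTL4 (synaptotagmin-like 4 or granuphilin, ENSECAG00000019341, 2200 bases), the RAB27A effector, followed the same split. It was at 93.1, 130 and 136 RPKM in DPPJ, 6.55, 126 and 87.6 in DPPA, 12.7, 67.0 and 144 in MHPA, and 4.61, 3.95 and 4.88 in MHPJ. The 12 long bone libraries held 5.89 to 13.3 RPKM, all above MHPJ. RAB27A and SYTL4 had the highest correlation of any pair of the 9 genes over the pituitary libraries, with r of 0.976.

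RAB3B (ENSECAG00000015669, 737 bases), the least abundant of the 9 in most pituitary libraries, did not show that split. Its RPKM was 28.0, 20.5 and 14.4 in DPPJ, 21.4, 52.4 and 38.9 in DPPA, 2.44, 63.3 and 25.8 in MHPA, and 23.5, 1.34 and 16.8 in MHPJ. DPPA replicate 1 and MHPJ replicates 1 and 3 lay within the DPPJ range. In long bone it was at 0 to 1.25 RPKM, from 0 to 23 reads.

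The order of the 8 group means differed between the genes. CHGA, SCG2, SCG3 and RAB3B were highest in DPPA, CHGB, SCG5, SYTL4 and RAB27A in DPPJ, and CPE in MHPJ, at 633 ± 520 RPKM (SD, n = 3). For RAB27A and SYTL4, MHPJ was the lowest of all 8 groups, at 4.82 ± 1.53 and 4.48 ± 0.478 RPKM. Neighbouring groups in these orders overlapped, apart from MHPJ and the bone group next to it for SCG2, SCG3, RAB3B, RAB27A and SYTL4.

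A row that carries no gene name but a description as prosaas, the product of PCSK1N, was looked up after the other values were known. It is ENSECAG00000009912, with a length of 219 bases, and held 12, 12.3 and 20.9 RPKM in DPPJ, 14.2, 8.89 and 8.58 in DPPA, 11.2, 9.56 and 10.6 in MHPA, and 16.9, 4.78 and 17.2 in MHPJ. All 4 groups overlapped. In long bone it had 0 to 2 reads, or at most 0.51 RPKM. It is not counted among the 9 genes.

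**Figure D2:**
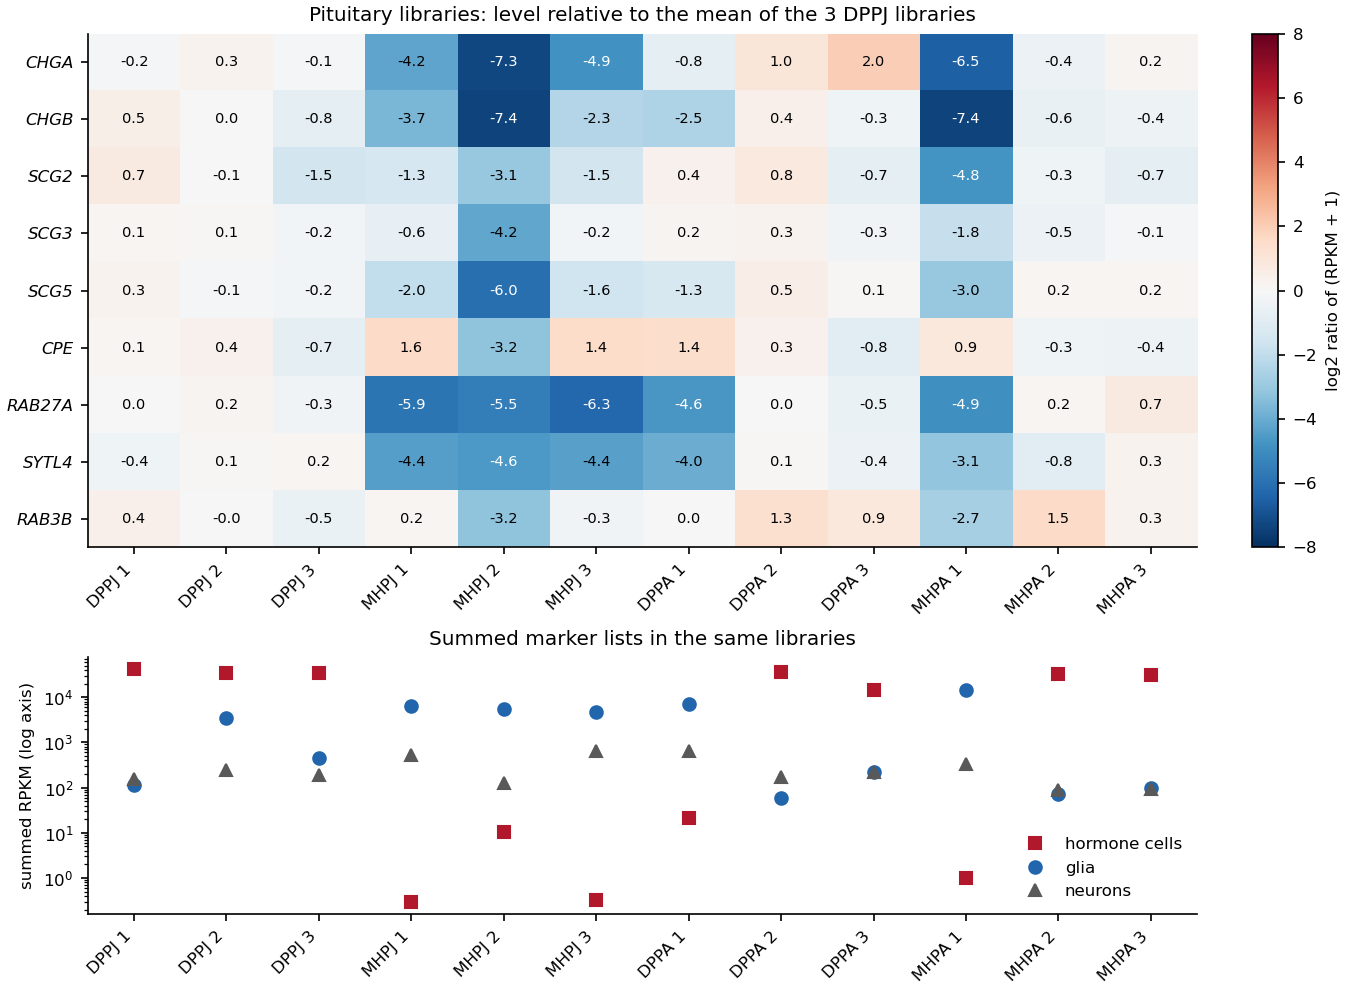
Upper panel: log2 ratio of RPKM + 1 in each pituitary library to the mean of the 3 DPPJ libraries, for the 9 genes. Lower panel: summed RPKM (log axis) of the markers of hormone cells, glia and neurons in the same libraries. RAB27A and SYTL4 are 3.1 or more log2 units down in the 5 libraries with few hormone gene reads, while CPE is raised in 4 of those 5.

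The first breed comparison asked which genes differed between the pituitaries of the juveniles. The transport and docking pair and both chromogranins were higher in DPPJ than in MHPJ. The log2 difference, DP minus MH, was 5.93 ± 0.36 (SE) for RAB27A, or 61.0-fold, 4.87 ± 0.81 for CHGA, or 29.2-fold, 4.54 ± 0.22 for SYTL4, or 23.3-fold, and 3.21 ± 1.18 for CHGB, or 9.25-fold. These 4 of 9 met the DEG threshold, all higher in DP, where 7.6% of the 14603 genes tested were called higher and 12.7% lower. SCG5, at 2.14 ± 0.99, did not meet the threshold although its libraries did not overlap. The 5 genes whose libraries did not overlap stand beside 30.3% of 13740 genes of at least 1 RPKM on average that lay wholly higher in DPPJ and 13% that lay wholly lower. The other log2 differences were 1.63 ± 0.68 for SCG2, 0.76 ± 0.87 for SCG3, 0.45 ± 0.87 for RAB3B and -1.10 ± 1.04 for CPE. The median of the 9 was 2.14, against -0.07 for all genes. The shares without overlap rest on RPKM and the edgeR calls on scaled counts, so these shares are not on the same scale. With limma on log2(RPKM + 1) the median of all genes was 0.14.

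MHPJ replicate 2 widened the error of several of these values. It had the lowest level of all 12 pituitary libraries for CHGA, SCG3, SCG5, CPE, SYTL4 and RAB3B, and its neuronal marker sum was 124 RPKM against 529 and 643 in the other MHPJ libraries, while its glial sum of 5636 lay between theirs. It also stood apart in blood and vessel markers, 6 found of 7, with sums of 253 RPKM for erythroid cells (at most 1.05 in the other 11 pituitary libraries), 22.2 for neutrophils (at most 1.21) and 110 for endothelium (16.2 to 53.8). Their part in its levels was not tested. Without it, 6 of 9 met the threshold, with CHGA at 4.40 ± 0.27, CHGB at 2.67 ± 0.58, SCG5 at 1.61 ± 0.26, RAB27A at 6.23 ± 0.28 and SYTL4 at 4.5 ± 0.23, and with CPE lower in DP at -1.64 ± 0.31. The calls over all genes also rose, to 12.8% higher and 17.1% lower of 15071. RAB3B then stood at -0.07 ± 0.32. The call of CHGB was the least stable, since it was lost when DPPJ replicate 1, 2 or 3 or MHPJ replicate 1 was left out, with 3, 3, 4 and 3 genes then called; without DPPJ replicate 3 SCG2 took its place. With an adjusted p under 0.05, 10.7% of all genes were called, among them CHGA, RAB27A and SYTL4. That share, 1562 genes, depended strongly on the setting. The number was 0 with the replicate number as a block, 8 without DPPJ replicate 1 and 9 without DPPJ replicate 3. It was 4239 with DESeq2 and 6150 without MHPJ replicate 2. The sums of hormone cell and glial markers did not overlap between DPPJ and MHPJ, and their part in these differences was not tested.

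In the adult pituitary the same contrast gave no call. All 9 genes overlapped between DPPA and MHPA, where 4.62% of genes of at least 1 RPKM lay wholly higher in DP and 11% wholly lower, and edgeR called 0 of 9, with 0 at an unadjusted p under 0.05; DESeq2 and limma on log2(RPKM + 1) also called 0. In this comparison 1.75% of the 14376 genes tested were called higher in DP and 1.18% lower. The log2 differences were 1.94 ± 1.39 for CHGA, 1.60 ± 0.98 for SCG2, 0.96 ± 0.42 for SCG3, 0.90 ± 1.41 for CHGB, 0.55 ± 0.93 for RAB3B, 0.54 ± 0.74 for CPE, 0.51 ± 0.78 for SCG5, 0.18 ± 1.10 for SYTL4 and -0.46 ± 1.42 for RAB27A. The large errors came with replicate 1 of each group, which lacked the hormone genes. With both of these libraries left out, an alternative chosen after seeing the data, CHGA was called at 1.78 ± 0.40 and the other 8 genes were not. A fit with the replicate number as a block also called CHGA alone, at 2.93 ± 1.02. Without MHPA replicate 3, SCG3 was called at 1.30 ± 0.45.

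**Figure D3:**
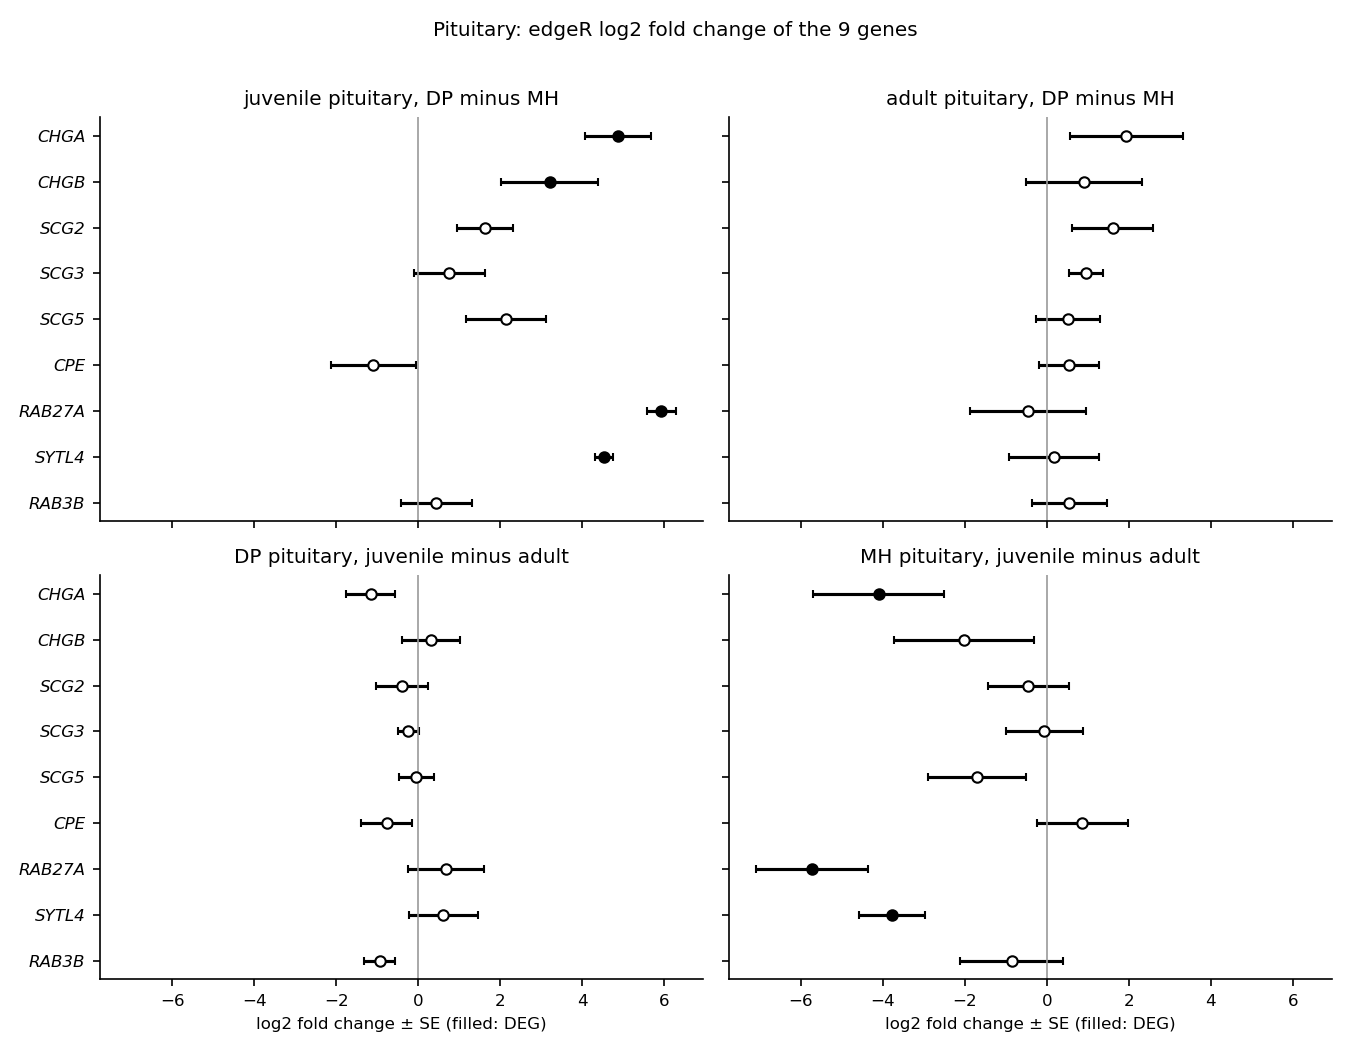
Log2 fold changes of the 9 genes with SE in the breed and stage comparisons of the pituitary; filled points met the DEG threshold. In juveniles RAB27A, CHGA, SYTL4 and CHGB were higher in DP, no gene met the threshold between adults or between DP stages, and RAB27A, CHGA and SYTL4 were lower in juvenile than in adult MH.

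Between the stages of one breed, the DP pituitary showed little. All 9 genes overlapped between DPPJ and DPPA, where 17.4% of genes of at least 1 RPKM lay wholly higher in juveniles and 6.11% wholly lower. EdgeR called 0 of 9, where 0.929% of 14533 genes were called higher in juveniles and 2.64% lower. At an unadjusted p under 0.05 alone there was 1 gene, RAB3B, at -0.94 ± 0.38 juvenile minus adult, DESeq2 called 1, CHGA, and limma on log2(RPKM + 1) called 0. CHGA stood at -1.16 ± 0.61, RAB27A at 0.69 ± 0.92 and SYTL4 at 0.61 ± 0.84. Without DPPA replicate 1, which lacked the hormone genes, CHGA at -1.59 ± 0.28 and RAB3B at -1.19 ± 0.31 were called lower in juveniles, and RAB27A and SYTL4 came to 0.13 ± 0.25 and 0.07 ± 0.23. Without DPPJ replicate 1, RAB3B was called at -1.24 ± 0.41.

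In the MH pituitary 3 of 9 genes were called, all lower in juveniles, where 4.5% of 14430 genes were called higher and 3.24% lower. They were RAB27A at -5.73 ± 1.36, CHGA at -4.11 ± 1.59 and SYTL4 at -3.77 ± 0.80, and RAB27A and SYTL4 had no overlap between MHPJ and MHPA. Of genes of at least 1 RPKM, 4.71% lay wholly higher in MHPJ and 13% wholly lower. CHGB at -2.02 ± 1.71, SCG5 at -1.70 ± 1.19, SCG2 at -0.45 ± 0.99, SCG3 at -0.06 ± 0.93, RAB3B at -0.86 ± 1.25 and CPE at 0.87 ± 1.11 did not meet the threshold. Without MHPA replicate 1, RAB27A stood at -6.30 ± 0.42, SYTL4 at -4.25 ± 0.40 and CHGA at -4.68 ± 0.94. The call of CHGA was lost when any other library of the comparison was left out, and 2 genes then met the threshold. MHPJ also lay apart from MHPA replicates 2 and 3 in the hormone cell and glial sums, whose part was not tested. This comparison and the juvenile breed comparison share the MHPJ libraries, so they are not independent of each other.

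The breed difference was then compared between the stages. For RAB27A the DP minus MH difference was larger in juveniles than in adults by 6.43 ± 1.73 log2 units and for SYTL4 by 4.39 ± 1.29, and both met the threshold on this interaction, 2 of 9 genes, where 6.8% of genes were called positive and 8.87% negative. CHGA at 2.94 ± 1.68, CHGB at 2.31 ± 1.96, SCG5 at 1.63 ± 1.35 and CPE at -1.66 ± 1.38 did not. At an unadjusted p under 0.05 the count was also 2, and no gene had an adjusted p under 0.05. CHGA joined the calls, at 3.51 ± 1.13, without MHPA replicate 1, and CPE joined them, at -2.22, without MHPJ replicate 2.

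Ratios within one library do not depend on sequencing depth and show how unevenly the genes moved. The ratio of RAB27A to SCG3, both in RPKM, was 0.669 to 1.44 in the 7 libraries with hormone genes. It was 0.0261 in DPPA replicate 1, 0.0879 in MHPA replicate 1, and 0.0181, 0.293 and 0.00916 in MHPJ. The ranges did not overlap. SYTL4 to SCG3 was 0.204 to 0.390 in the 7 libraries and 0.0135 to 0.182 in the other 5.

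CHGB to SCG3 fell into the same separate ranges, 6.42 to 11.6 in the 7 libraries against 0.187 to 2.12 in the 5. SCG5 to SCG3 was 1.63 to 2.86 against 0.490 to 0.811. CHGA to SCG3 was 4.15 to 24.1 against 0.194 to 2.52. CPE to SCG3 went the other way, with 0.533 to 0.986 in the 7 libraries and 1.59 to 5.21 in the 5. For SCG2 to SCG3 (0.572 to 2.04 against 0.165 to 3.02) and RAB3B to SCG3 (0.0413 to 0.216 against 0.0214 to 0.0882) the ranges overlapped. These 2 sets of libraries were set apart by hormone gene levels and are no groups of the study, so the ranges carry no test.

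**Figure D4:**
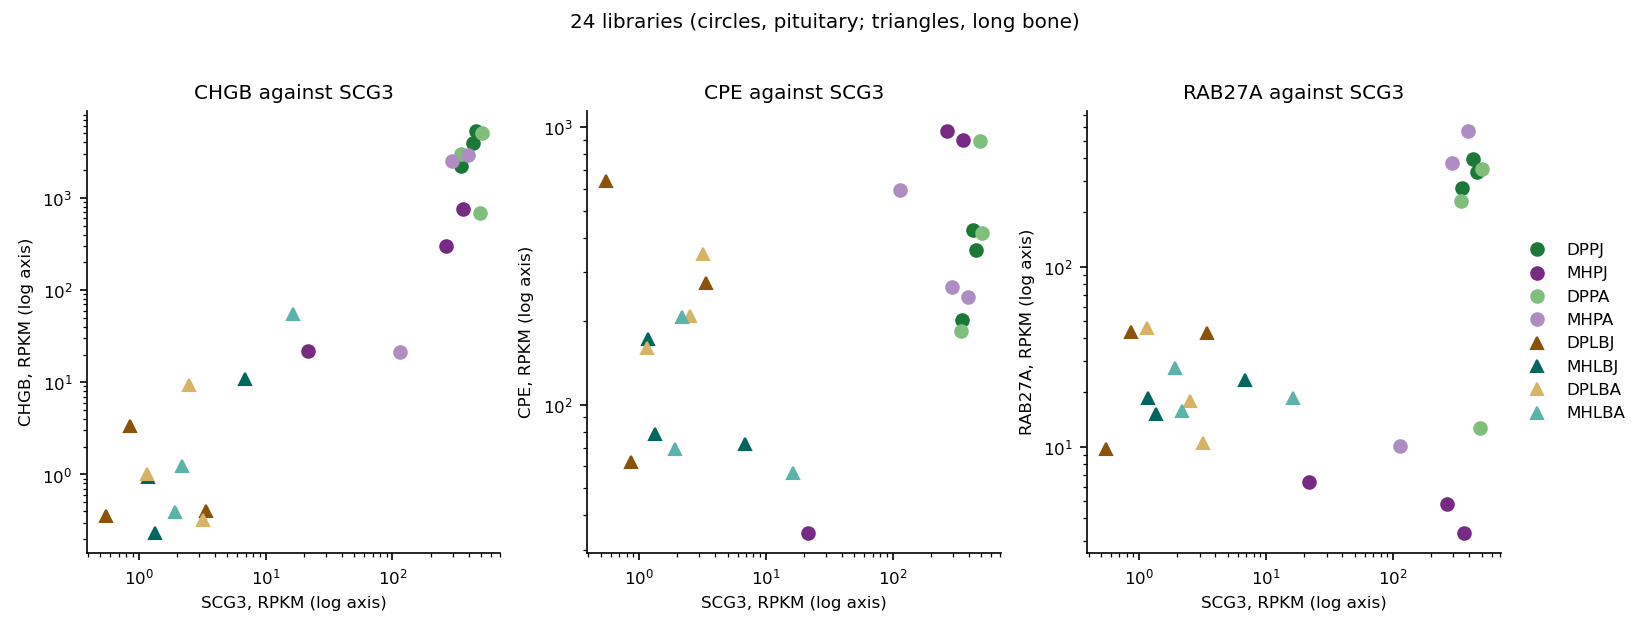
CHGB, CPE and RAB27A against SCG3, RPKM on log axes, in all 24 libraries coloured by group (circles, pituitary; triangles, long bone). DPPA replicate 1, MHPA replicate 1 and the 3 MHPJ libraries lie below the other pituitary libraries for RAB27A and CHGB, and all of them but MHPJ replicate 2 lie above the others for CPE.

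In the long bone the granins were low, with medians over the 12 libraries from 0.09 RPKM (SCG2) to 2.05 (SCG3), and 1 library carried most of their reads. In MHLBA replicate 1, CHGB reached 55.1 RPKM, CHGA 32.9, SCG5 27.0, SCG2 16.6 and SCG3 16.5, whereas the other 11 bone libraries held at most 11, 9.82, 2.49, 1.96 and 6.84. It had 6518 reads of the 5 granins in sum, and the next libraries, MHLBJ replicate 3 and DPLBA replicate 3, had 1209 and 1205. The hormone cell markers summed to 3.22 RPKM in MHLBA replicate 1, within the 0.35 to 113 RPKM of the other bone libraries. The 113 was that of DPLBA replicate 3, and the next highest sum was 28.5 in DPLBJ replicate 2. The neuronal marker sum of MHLBA replicate 1 lay within the 0.53 to 11.6 RPKM of the bone libraries and its glial sum within their 48.9 to 98.9. It had the lowest sums of the 12 bone libraries for adipocytes, at 45.3 RPKM against 145 to 912, and for endothelium, at 62.8 against 95.8 to 480, and its chondrocyte sum of 149 stood above the 0.86 to 2.67 of the other 5 MH bone libraries. PTPRN2, a granule membrane protein, stood at 54.5 RPKM and PCSK2, a prohormone convertase, at 14.1 in that library. Their levels in the other 11 bone libraries are not given here, so these values do not show whether they were raised. The part of these cell types in its granin reads was not tested.

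Between the breeds, the main edgeR fit called none of these genes in the bone. Other edgeR settings with all libraries in gave calls at both stages, and DESeq2 called CPE at both. In juveniles 8 of the 9 passed the filter on low counts, all but RAB3B, and edgeR called 0, with 0 at an unadjusted p under 0.05, where 8.33% of 13755 genes were called higher in DP and 5.47% lower. CPE was at 1.72 ± 0.79 and RAB27A at 0.91 ± 0.54, and the granins lay between -1.49 ± 1.78 (SCG2) and -0.71 ± 1.16 (CHGA). The direction of most granins depended on single libraries. On leaving out 1 library, CHGA reached 0.55, CHGB 1.42, SCG2 0.94 and SCG3 0.39, while SCG5 was at most -0.64. MHLBJ replicate 3 held 1209 granin reads, against 57 and 188 in MHLBJ replicates 1 and 2. DESeq2 called 1, CPE, and limma on log2(RPKM + 1) called 0. Leaving out DPLBJ replicate 1 gave a call of RAB27A at 1.33 ± 0.29, and leaving out DPLBJ replicate 2 one of CPE at 2.20 ± 0.57.

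In adults 7 passed, all but SCG2 and RAB3B, and edgeR called 0, with 0 at an unadjusted p under 0.05, where 10.3% of 14073 genes were called higher and 8.03% lower. DESeq2 and limma on log2(RPKM + 1) each called CPE, which edgeR gave as 1.11 ± 0.52. The granin differences were -3.67 ± 1.81 for SCG5, -3.08 ± 1.94 for CHGB, -2.37 ± 2.30 for CHGA and -2.08 ± 1.06 for SCG3. All 4 turned their sign without MHLBA replicate 1, to 1.72, 2.22, 4.39 and 0.35, so their direction rests on that library. Without MHLBA replicate 2, CPE was called higher and SCG3 and SCG5 lower, at 1.73, -2.53 and -4.20, and without MHLBA replicate 3, SCG2, SCG3 and SCG5 were called lower, with SCG3 at -2.58 and SCG5 at -4.23; MHLBA replicate 1 then made up more of its group. SYTL4 at -0.49 ± 0.31 and RAB27A at 0.09 ± 0.52 differed little. With adjusted p under 0.05, 2.24% of all genes were called and none of the 7.

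Between the stages, edgeR called 0 of 7 genes in DP long bone, where 1.58% of all genes were called higher in juveniles and 1.56% lower, and 0 of 8 in MH long bone, where the shares were 0.763% and 2.14%. DESeq2 and limma on log2(RPKM + 1) called 0 in both, and no gene had an unadjusted edgeR p under 0.05, a count of 0 in each breed. Without DPLBA replicate 2, CHGA was called in DP at -3.36 ± 1.21. In MH the values were -4.38 ± 2.26 for CHGA, -4.09 ± 1.94 for SCG5, -3.68 ± 2.26 for SCG2, -2.99 ± 2.05 for CHGB and -1.78 ± 1.19 for SCG3, and all 5 turned positive without MHLBA replicate 1. Without MHLBA replicate 2, SCG5 was called at -4.66 ± 1.73, and without MHLBA replicate 3, CHGA at -4.96 ± 1.92 and SCG5 at -4.65 ± 1.72. The interaction of breed and stage was called for 0 of 8 genes in the bone by edgeR, with 0 at an unadjusted p under 0.05, where 2.54% of genes were called positive and 1.63% negative.

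Among all named genes with a mean of at least 1 CPM, the 3 whose log2 CPM over the 12 pituitary libraries were most like each member were listed with their Pearson r. For RAB27A these were PRL, the prolactin gene, at 0.991, CISD2 at 0.989 and NEUROD4 at 0.987. For SYTL4 they were PLA2G4F, GNMT and CLDN9 at 0.982 to 0.983. CHGB was most like STAT2 (0.982), PTPRR (0.974) and NEUROD1 (0.968), and CHGA most like CXorf57 (0.973), RESP18 (0.970) and GOLM1 (0.969).

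The remaining members had other companions. SCG3 was most like TUB (0.985), NAP1L2 and SLC25A14 (both 0.973), SCG5 most like OGDHL (0.974), PARP8 (0.971) and TMEM176A (0.969), and SCG2 most like UNG (0.961), TM9SF4 (0.934) and PSMD1 (0.931). CPE was most like ABAT and CDH10 (both 0.968) and GNAO1 (0.957), of which ABAT degrades the transmitter GABA and GNAO1 is a neuronal G protein subunit. RAB3B was most like NABP1 (0.953), PCSK2 (0.948) and GLRA3 (0.947). The libraries fall into clusters, so a high r here says mainly that 2 genes were high and low in the same libraries. The 9 genes did not all share one pattern, since r was 0.439 between SCG3 and RAB27A and -0.284 between CPE and RAB27A.

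The wider pathway was read from 5 lists of 81 genes in all, of which 74 were found: prohormone processing, dense-core vesicle components and biogenesis, Rab GTPases and their effectors, fusion machinery, and neuroendocrine transcription regulators. The lists were chosen with earlier results of these data known, and genes were named for their large change. The adjusted p-values beside those names, here and below, are therefore a description. Between the tissues, 41 of 73 genes tested were called higher in pituitary and 11 lower, or 56.2% and 15.1%, beside 21.5% and 17.4% of all genes. All dense-core vesicle genes but 1, 10 of 11, were called higher, and none lower. Among the named genes, CADPS, which primes granules for fusion, was higher by 7.45 log2 units (edgeR, Benjamini-Hochberg adjusted p = 6.55e-08), SYT4 by 8.04, SNAP25 by 7.98, RAB3A by 4.76 and CYB561 by 4.16. PCSK5, a convertase of many tissues, stood at -2.21 (edgeR, adjusted p = 8.9e-08).

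Between the juvenile pituitaries the lists held calls in both directions, with 9 of 70 genes called higher in DP and 11 lower, or 12.9% and 15.7%, beside the 7.6% and 12.7% of all genes. In the lists, 2 genes higher and 4 lower had an adjusted p under 0.05 in the main fit. The number of all genes under that mark varied widely with the setting, as given above. The counts were 1 higher and 1 lower of 10 for prohormone processing, 0 of 10 for dense-core vesicle genes, 2 and 5 of 20 for Rab GTPases and effectors, 4 and 4 of 25 for fusion machinery, and 2 and 1 of 5 for the transcription regulators. NEUROD4, a transcription factor of the neuroendocrine lineages, was higher by 7.69 ± 0.85 (edgeR, adjusted p = 0.0133), and its RPKM was 29.4 to 37.7 in DPPJ against 0.0 to 0.3 in MHPJ. NEUROD1 was higher by 3.64 ± 0.87 (edgeR, adjusted p = 0.0514). PCSK1, the first convertase of the granule, was higher by 2.39 ± 0.83 (edgeR, adjusted p = 0.113). VAMP8, a vesicle SNARE, was higher by 2.43 ± 0.59 (edgeR, adjusted p = 0.0529).

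Lower in DPPJ than in MHPJ were RPH3A, a Rab3 and Rab27 effector known from nerve terminals, at -4.85 ± 1.26 on the log2 scale (edgeR, adjusted p = 0.0611), and SYTL5, a relative of SYTL4, at -3.30 ± 1.12 (adjusted p = 0.11). STXBP6, a syntaxin-binding protein, stood at -3.99 ± 0.78 (edgeR, adjusted p = 0.0341) and CPD, the ubiquitous relative of CPE, at -1.05 ± 0.21 (adjusted p = 0.0363). RPH3A held 0.1 to 1.2 RPKM in DPPJ and 25, 1.8 and 26.5 in MHPJ. RAB3A, the neuronal relative of RAB3B, was at 165 and 182 RPKM in MHPJ replicates 1 and 3, at 14.0 in replicate 2 and at 35.6 to 40.9 in DPPJ. The ratio of RAB3A to RAB3B was 0.558 to 2.47 in the 7 libraries with hormone genes and 5.49 to 15.3 in the other 5. SNAP25, the membrane SNARE shared by neurons and endocrine cells, was at 487, 6.1 and 460 RPKM in MHPJ and 153 to 200 in DPPJ.

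**Figure D5:**
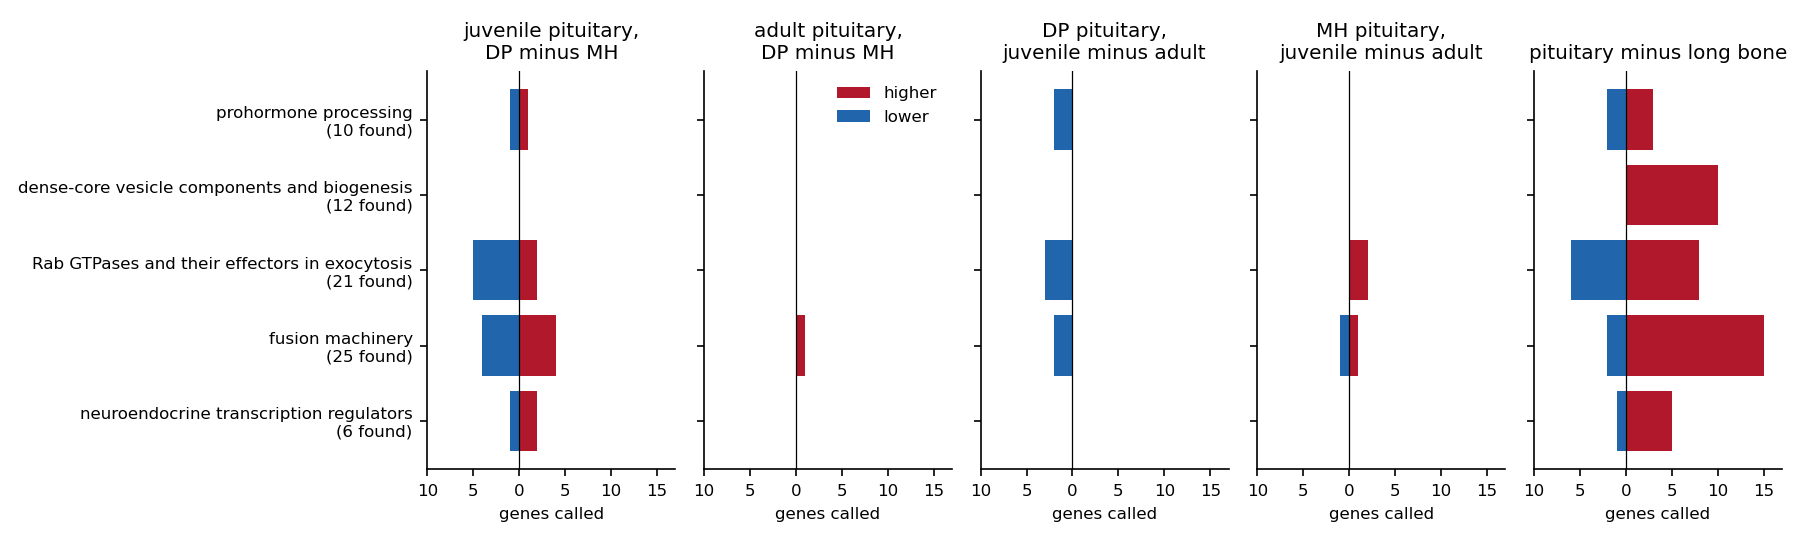
Genes of the 5 pathway lists called higher or lower at the DEG threshold, as counts, in the 4 breed and stage comparisons of the pituitary and between the tissues. The tissue comparison has the most calls, 41 higher and 11 lower, and the juvenile pituitary has 9 and 11.

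In the other comparisons the lists had fewer calls. Between the adult pituitaries 1 of 70 genes was called higher in DP and 0 lower, or 1.43% and 0%, beside 1.75% and 1.18% of all genes. Between DP stages 0 of 72 were called higher in juveniles and 7 lower, or 0% and 9.72%, beside 0.929% and 2.64% of all genes. PCSK1 was among the lower ones, at -1.08 ± 0.44 (edgeR, adjusted p = 0.427). Between MH stages 3 of 69 were higher and 1 lower, or 4.35% and 1.45%, beside 4.5% and 3.24% of all genes. The higher ones included SYTL5 at 3.73 ± 0.88 (edgeR, adjusted p = 0.348) and SYTL2, another Rab27 effector, at 2.53 ± 0.40 (adjusted p = 0.285). In the long bone 7 of 57 were higher and 6 lower in juvenile DP than in juvenile MH, or 12.3% and 10.5%, beside 8.33% and 5.47% of all genes. RAB27B, the close relative of RAB27A, stood at 2.64 ± 0.62 (edgeR, adjusted p = 0.148). In adult bone 6 of 61 were higher and 11 lower, or 9.84% and 18%, beside 10.3% and 8.03% of all genes. UNC13D, a priming factor that binds RAB27A, stood at 2.74 ± 0.48 (edgeR, adjusted p = 0.0393) and RAB37 at 2.92 ± 0.56 (adjusted p = 0.0449). The target membrane SNARE STX1A stood at -3.08 ± 0.57 (edgeR, adjusted p = 0.0422). Between stages in bone, 1 was higher and 3 lower of 60 in DP, or 1.67% and 5%, beside 1.58% and 1.56% of all genes. In MH bone these were 0 and 4 of 59, or 0% and 6.78%, beside 0.763% and 2.14%.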

How the data were processed

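The deposited files gave reads per gene as counts and RPKM values made by the authors for 24 libraries, 3 in each of 8 groups taken from the labels. Per the labels, libraries were directional, depleted of ribosomal RNA and read as 151 nt pairs, and the submitters' notes list bcl2fastq, TopHat2 and edgeR, while the study's methods give single-end reads, trimming, the EquCab 3.0 genome and Salmon. Which of these made the deposited values is not given in the sources used here, nor whether counting used strand, so reads of overlapping genes cannot be told apart. RPKM of the 9 genes was checked against counts over gene length, with values of few reads left out. The depth of each library was taken as the median total implied by the RPKM values themselves. On that scale the 9 genes were off by at most 0.412%. The implied total was not the number of assigned reads, at 29194493 against 21638458 in DPPA replicate 1. In DPLBA replicate 2, 354 of 11757 genes checked were off by over 2%.

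Counts were tested with edgeR 4.0.16 in R 4.3.3 (quasi-likelihood test, TMM normalization, filterByExpr with a minimum count of 10). The study's threshold for a DEG, a fold change over 2 with p under 0.05 before adjustment, gave the calls, and adjusted p is Benjamini-Hochberg over all genes tested. DESeq2 1.42.0, limma 3.58.1 on log2(RPKM + 1) and log2(RPKM + 0.1), no TMM, no filter, one fit per tissue, a replicate block and leaving out each library were alternatives. Fold changes of one gene with 3 libraries against 3 cannot reach a two-sided permutation p under 0.1. The scripts were tested on simulated data.

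The members and lists were chosen with earlier results of these data known. Named list genes are at most 2 called genes per list and comparison, those of largest change with no overlap between groups. A gene was matched to a member by exact name. Replicate numbers come from the labels, which do not say that they mark an animal or day. Over 12755 genes, same-numbered libraries of DPPA and MHPA deviated together (r = 0.675, 0.583 and 0.392), and no other comparison met this mark in every pair. No 2 libraries held identical values. Gene positions and sequences are not used here.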

Additional observations from a re-analysis of the deposited data

Results flagged for a closer look

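The difference between the breeds in the pituitary differed between the stages for RAB27A, by 6.43 log2 units, and for SYTL4, by 4.39, in the edgeR test of the interaction at the unadjusted threshold. Neither had an adjusted p under 0.05. All 3 juvenile libraries of DP were above all 3 of MH for both genes, and the adult libraries overlapped. Both genes were higher in every pituitary library with a high hormone cell marker sum than in every one without. The part of these markers in the difference was not tested.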

How the results depend on the processing

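In the juvenile pituitary 3 to 6 of the 9 genes were called under the alternatives, and CHGA, RAB27A and SYTL4 were among them each time. Calls over all genes moved too, from 1110 higher and 1852 lower of 14603 in the main fit. They were 1185 and 2194 of 14603 with DESeq2 and 919 and 1234 of 15011 without DPPJ replicate 1. Without MHPJ replicate 2 they were 1934 and 2571 of 15071. Counts of called genes that changed were as follows, and where no sample or filter was dropped the cause was not tested. In the adult pituitary 0 became 1 with the replicate block and 1 with DPPA and MHPA replicate 1 both left out, with a range of 0 to 1 when 1 library was left out. Over all genes, the main fit called 252 higher and 169 lower of 14376. The block called 373 and 220 of 14376, and the fit without both libraries 486 and 380 of 14394. In the juvenile long bone 0 became 1 without the low-count filter, 1 with DESeq2 and 1 in one fit of the tissue (0 to 1 on leaving out 1 library). Over all genes, 1146 higher and 753 lower of 13755 in the main fit became 1592 and 1022 of 21757 without the filter. They became 1438 and 818 of 13755 with DESeq2, and 1390 and 844 of 14735 in one fit. For the comparisons that follow, calls over all genes under these settings are not given here, so the counts describe the 9 genes only. In the adult long bone 0 became 2 without the filter and 1 each with the replicate block, DESeq2, both pseudocounts of limma and one fit of the tissue (0 to 3). Between DP pituitary stages 0 became 1 with DESeq2 (0 to 2). Between MH pituitary stages 3 became 0 with adjusted p and 2 with the replicate block and both pseudocounts of limma (2 to 3). Between DP long bone stages the range was 0 to 1, and between MH long bone stages 0 became 1 without the filter and in one fit of the tissue (0 to 2). For the interaction in the pituitary 2 became 0 with adjusted p. The replicate block called 3 in the juvenile pituitary, where CHGB was lost. Beside this and the changes above, where it gained CHGA in the adult pituitary and CPE in the adult long bone and lost CHGA between MH pituitary stages, it changed no call. In the bone, 0 to 23 reads of RAB3B limit any statement on it.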
